A study of Homo sapiens with 2 samples.

Results

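Of the 32 genes described here, which fold and quality-check proteins in the endoplasmic reticulum (ER) or send misfolded ones to degradation, 31 were measured at a mean of at least 1 CPM, the gene's count scaled to library size, in HEK293T cells. The genes were chosen by name, from what their products do. They fall into 6 luminal chaperones, 4 genes of the lectin cycle, 8 disulfide enzymes, 10 factors of ER-associated degradation (ERAD) and 4 stress sensors. The sensor group includes XBP1, which is not itself a sensor but acts downstream of the sensor IRE1. The whole data set named 28117 genes, 13750 of them at that level. HEK293T is a human embryonic kidney line that carries a polyomavirus large T antigen. One culture was reverse transfected with a mimetic of tRF-3004b, a tRNA fragment. The other received a non-targeting control RNA. Both RNAs carried a 5′ phosphate and were used at 500 nM with a lipid reagent for 120 h, and poly-A RNA was sequenced from 1 library per group.

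The ER lumen holds an HSP70 chaperone, BiP, and an HSP90 chaperone that bind unfolded chains, and a lectin cycle in which calnexin and calreticulin hold glycoproteins until the sugar tag is removed. Protein disulfide isomerases form and shuffle disulfide bonds and are reoxidised by ERO1 enzymes. Chains that stay misfolded are passed by mannosidase-like EDEM proteins and the lectin OS9 to the SEL1L and SYVN1 ubiquitin ligase complex, and are pulled out to the proteasome. The sensor IRE1, encoded by ERN1, cuts XBP1 mRNA, and ATF6 is cleaved in the Golgi. Both then raise transcription of the chaperone and ERAD genes through ER stress elements in their promoters.

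The transfected RNAs are shown because they are the only stated difference between the libraries. Capitals mark bases 2 to 8 from the 5′ end, the seed.
tRF-3004b mimetic: uCAAAUCUcgguggaaccucca
non-targeting control: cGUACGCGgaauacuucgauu

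The tRF-3004b library held 1809193 estimated counts and the control library 19609933, so the intervals are set mainly by the counts of the tRF-3004b library. There were no replicates, so no p-value is given, and each comparison is between these 2 libraries and not between the conditions. Log2 ratios were taken as tRF-3004b over control, with 95% intervals that cover counting error only. All 8 markers listed for HEK293 cells, which include VIM and LIN28B, had counts in both libraries. They summed to 1344 CPM in the tRF-3004b library and 1788 CPM in the control library (log2 ratio -0.41, interval -0.47 to -0.35), with VIM at -0.56 and NEFL at -0.88, while their median log2 ratio was 0.32. Summed markers of other cells were higher in the tRF-3004b library. The 8 fibroblast genes summed to 118 CPM in the tRF-3004b library and 36.2 CPM in the control library, and the 7 blood cell genes to 30.4 and 4.06 CPM. FBLN1 of the fibroblast list went the other way, at 20.8 CPM in the tRF-3004b library and 23.7 CPM in the control library. HBA1 of the blood cell list had 0 counts in the tRF-3004b library and 15 in the control library. Its mean was 0.38 CPM and its interval reached up to 1.65, so no direction could be read from it. The 8 epithelial genes, of which KRT5 and UPK3A were at 0 in both, summed to 38.8 CPM in the tRF-3004b library and 10.7 CPM in the control library. At a mean of at least 1 CPM were 7 of the fibroblast, 5 of the blood cell and 5 of the epithelial genes. The 8 plasma cell genes, from a cell type rich in ER, summed to 39.4 CPM in the tRF-3004b library and 10.0 CPM in the control library, with 2 genes at that level, JCHAIN at 39 and 15 counts, and MZB1 and TNFRSF17 at 0 in both. In bulk RNA, fewer cells of a type and less RNA per cell cannot be told apart. The sample titles name HEK293T only. Whether other cells were present, where these marker reads came from, and their part in the values that follow were not tested.

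The 6 luminal chaperones all had log2 ratios above 0, except HSP90B1 on the TPM scale at -0.11. Of all 13750 genes, 6123 were above 0 and 7627 below. The 9 measured ERAD factors and 4 sensors all had log2 ratios below 0, except that DERL2, EDEM3, ATF6 and ERN1 were above 0 once the median of genes of like length was taken off. Of the 31 measured members, 3 were at least 2-fold higher in the tRF-3004b library (9.68%, beside 12.2% of all 13750 genes) and 0 were at least 2-fold lower (beside 14.2% of all genes). The counting interval lay above 0 for 9 members (29.03%, beside 23.3% of all genes) and below 0 for 10 (32.3%, beside 28.6%). Except for the absence of members at least 2-fold lower, these shares were near those of all genes. That absence did not hold with gene TPM, where 3 of the 31 members were at least 2-fold lower, beside 2434 of all 13750 genes. On that scale 0 members were at least 2-fold higher, beside 680 of all genes. The shares of all genes were not matched for level, and genes with low counts pass 2-fold more readily by counting error. Of all genes past 2-fold, 46.3% were higher in the tRF-3004b library on this scale and 21.8% with gene TPM. The median log2 ratio was -0.18 over the members and -0.11 over all genes, and turned to 0.051 over the members once the median of genes of like length was taken off. By role the medians were 0.45 for the luminal chaperones, -0.28 for the lectin cycle, -0.075 for the disulfide enzymes, -0.25 for the ERAD factors and -0.38 for the sensors. On the length scale the lectin cycle and disulfide medians turned to 0.10 and 0.056. The values ran from -0.81 for HERPUD1 to 1.32 for MANF.

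**Figure D1:**
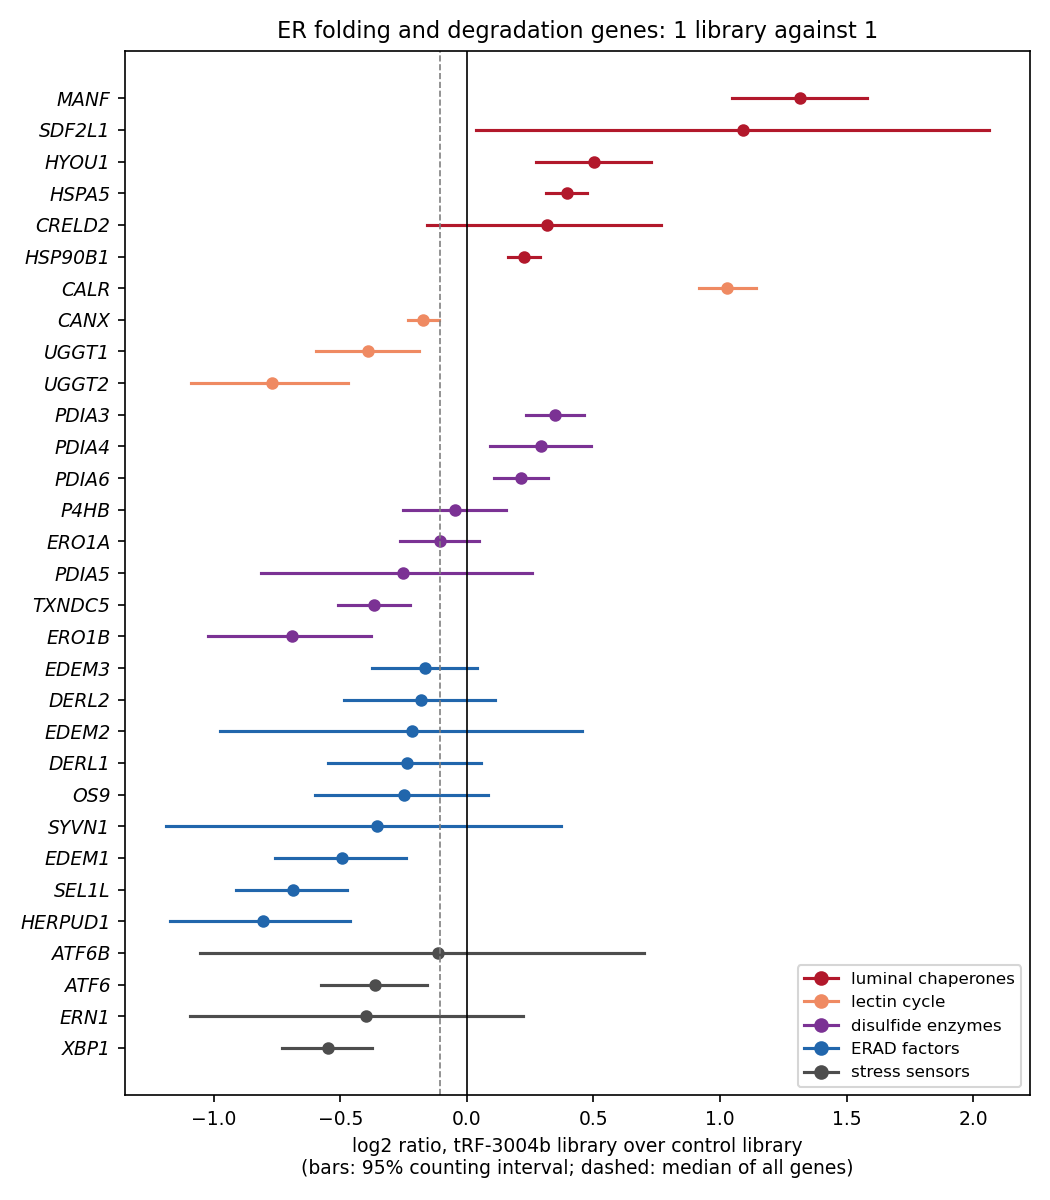
Log2 ratio (x axis, tRF-3004b library over control library) of the 31 measured members, grouped by role and coloured as in the legend. Points are log2 ratios, bars are 95% counting intervals, the solid line is 0 and the dashed line the median of all genes at -0.11; the 6 luminal chaperones lie right of 0 and the ERAD factors and sensors left of it, of which DERL2, EDEM3, ATF6 and ERN1 move above 0 and HSP90B1 below 0 on the length and TPM scales given in the text.

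On the scaled counts, the tRF-3004b library held more of each luminal chaperone mRNA, by 1.17-fold to 2.49-fold, while HSP90B1 was lower by TPM. MANF, a small ER protein that binds BiP and is secreted on ER stress (chromosome 3, 51385291 to 51389397, GRCh38), had 81.6 CPM in the tRF-3004b library and 32.7 CPM in the control library. Its log2 ratio of 1.32 (interval 1.05 to 1.58) was the highest among the members. SDF2L1, which works with BiP and its J-domain partners (chromosome 22, 21642302 to 21644299), had 11 counts in the tRF-3004b library and 57 in the control library, or 6.19 and 2.86 CPM. Its log2 ratio was 1.09, with an interval from 0.035 to 2.06 that reached almost to 0.

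HSPA5, which encodes BiP (chromosome 9, 125234853 to 125241343), had 783 CPM in the tRF-3004b library and 595 CPM in the control library. The difference was small beside that of MANF, with a log2 ratio of 0.40 (interval 0.31 to 0.48). HSP90B1, the ER HSP90 chaperone GRP94 (chromosome 12, 103930410 to 103947926), had 1295 CPM in the tRF-3004b library and 1107 CPM in the control library, a log2 ratio of 0.23 (interval 0.16 to 0.29). It was the most abundant member per length, at 856 TPM, a transcript level corrected for length, in the tRF-3004b library and 927 TPM in the control library. The order of the libraries was thus turned on the TPM scale, on which the median gene lay at a log2 ratio of -0.38. HYOU1, an HSP110-type nucleotide exchange factor of BiP, had 104 CPM in the tRF-3004b library and 73.1 CPM in the control library, a log2 ratio of 0.50 (interval 0.27 to 0.73). CRELD2, an ER stress-inducible protein, had 25.3 and 20.3 CPM in the tRF-3004b and control libraries, and its interval from -0.16 to 0.77 included 0.

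Levels per length spanned a wide range. After HSP90B1 came CANX, with 484 TPM in the tRF-3004b library and 692 TPM in the control library, and CALR, with 421 and 261 TPM. HSPA5 had 362 TPM in the tRF-3004b library and 349 TPM in the control library, and PDIA6 356 and 389 TPM. CALR was below HSPA5 in the control library and above it in the tRF-3004b library. MANF, at 185 TPM in the tRF-3004b library and 94.0 TPM in the control library, and XBP1, at 160 and 297 TPM, also changed places. The 9 measured ERAD factors ran from 5.58 TPM in the tRF-3004b library for SYVN1 to 34.4 TPM for DERL1. SDF2L1, the least abundant of the luminal chaperones, had 15.8 TPM in the tRF-3004b library and 9.21 TPM in the control library.

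**Figure D2:**
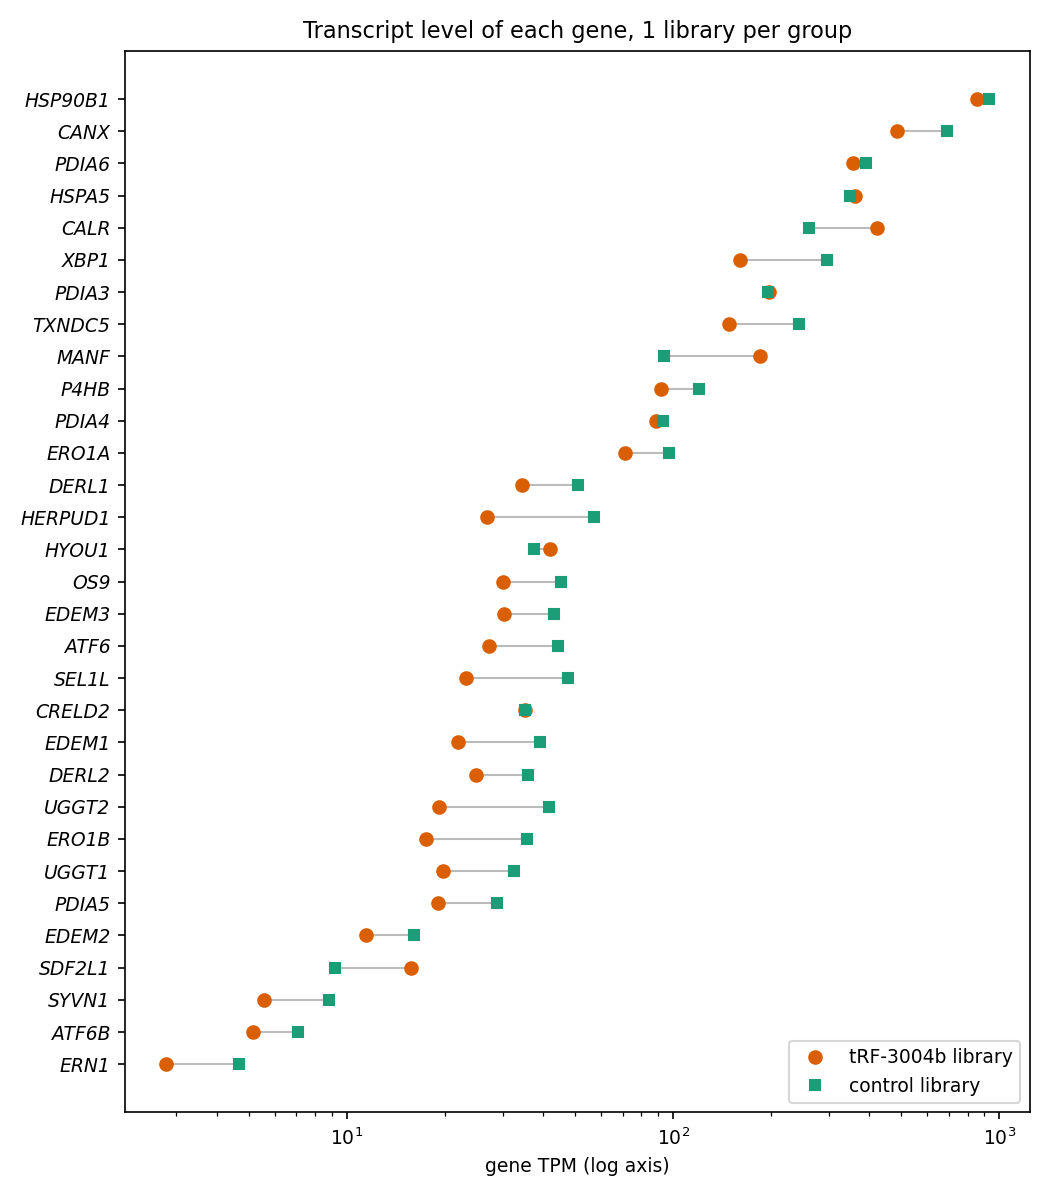
Gene TPM (x axis, log scale) of each member in the tRF-3004b library (circles) and the control library (squares), ordered by level, with 1 library per group; DERL3, at 0 in the tRF-3004b library, is not drawn. HSP90B1 is the highest and ERN1 the lowest, and MANF, CALR and SDF2L1 are the members whose circles lie farthest right of their squares.

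In the lectin cycle, calreticulin was higher and its membrane-bound relative was not. CALR (chromosome 19, 12938609 to 12944489), the soluble lectin, had 431 CPM in the tRF-3004b library and 211 CPM in the control library. The log2 ratio of 1.03 had an interval from 0.92 to 1.14, a 2.04-fold higher level. CANX, which encodes calnexin (chromosome 5, 179678656 to 179731641), had 1301 CPM in the tRF-3004b library and 1466 CPM in the control library. Its log2 ratio of -0.17 (interval -0.23 to -0.11) was close to the median of all genes. The glucosyltransferases that put the sugar tag back on unfolded glycoproteins were both lower. UGGT1 had 119 and 156 CPM in the tRF-3004b and control libraries (log2 ratio -0.39, interval -0.60 to -0.19). UGGT2 had 51.8 CPM in the tRF-3004b library and 88.5 CPM in the control library (log2 ratio -0.77, interval -1.09 to -0.47).

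Among the disulfide enzymes the values went both ways within a narrow range, from -0.69 to 0.35. PDIA3, the isomerase ERp57 that works with the lectins, had 399 CPM in the tRF-3004b library and 313 CPM in the control library, a log2 ratio of 0.35 (interval 0.24 to 0.46). PDIA4, the isomerase ERp72, had 130.0 and 106 CPM in the tRF-3004b and control libraries (log2 ratio 0.29, interval 0.09 to 0.49). PDIA6, an isomerase that binds BiP, had 436 and 376 CPM in the tRF-3004b and control libraries (log2 ratio 0.21, interval 0.11 to 0.32). These 3 were the higher ones, and PDIA4 and PDIA6 were below 0 on the TPM scale, at -0.069 and -0.13, above the all-gene median of that scale.

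P4HB, the founding protein disulfide isomerase and a subunit of prolyl 4-hydroxylase, had 120 CPM in the tRF-3004b library and 124 CPM in the control library, with an interval from -0.25 to 0.16. PDIA5, a further isomerase, had 33 and 442 counts in the tRF-3004b and control libraries, and its interval from -0.81 to 0.26 also included 0. TXNDC5, a thioredoxin-domain isomerase, had 238 and 307 CPM in the tRF-3004b and control libraries (log2 ratio -0.36, interval -0.51 to -0.22). Of the 31-base words of TXNDC5, 60.4% also occur in the readthrough gene BLOC1S5-TXNDC5, which had 82 and 937 counts in the tRF-3004b and control libraries, and the division of reads among the pair is uncertain. The ERO1 oxidases parted. ERO1A had 204 CPM in the tRF-3004b library and 219 CPM in the control library, with an interval from -0.26 to 0.050. ERO1B had 48.4 and 78.2 CPM in the tRF-3004b and control libraries (log2 ratio -0.69, interval -1.02 to -0.38).

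Each of the 9 measured ERAD factors had a log2 ratio below 0, with an interval below 0 for 3 (33.3%, beside 28.6% of all genes), and DERL2 and EDEM3 turned above 0 beside genes of like length. Of all 13750 genes, 7627 had a log2 ratio below 0. HERPUD1, a membrane protein that organises the SYVN1 ligase complex (chromosome 16, 56932142 to 56944864), had 71 counts in the tRF-3004b library and 1395 in the control library, or 39.97 and 69.95 CPM. Its log2 ratio of -0.81 (interval -1.17 to -0.46) was the lowest among the measured members. SEL1L, the adaptor that joins substrates to SYVN1 (chromosome 14, 81471547 to 81533853), had 103 CPM in the tRF-3004b library and 166 CPM in the control library (log2 ratio -0.69, interval -0.91 to -0.47). EDEM1, which trims mannose from misfolded glycoproteins, had 74.9 and 105 CPM in the tRF-3004b and control libraries (log2 ratio -0.49, interval -0.76 to -0.24).

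The other ERAD factors lay between -0.35 and -0.16, each with an interval that included 0. SYVN1, the ubiquitin ligase itself, had 16 and 230 counts in the tRF-3004b and control libraries, and its interval ran from -1.19 to 0.37. OS9, the lectin that reads trimmed sugars, was at -0.25 (interval -0.60 to 0.083). The derlins, membrane proteins of the retrotranslocation channel, were at -0.24 for DERL1 (99 and 1311 counts in the tRF-3004b and control libraries) and -0.18 for DERL2 (102 and 1298 counts). EDEM2 and EDEM3, relatives of EDEM1, were at -0.22 (19 and 248 counts in the tRF-3004b and control libraries) and -0.16 (207 and 2604 counts). DERL3, a derlin made mainly in secretory cells, had 0 counts in the tRF-3004b library and 4 in the control library, and was left out. At this depth a count of 0 allows up to 3 counts in the tRF-3004b library, so no difference in DERL3 could be detected. Summed over the 10 ERAD genes, the level was 511 CPM in the tRF-3004b library and 679 CPM in the control library, a log2 ratio of -0.41 (interval -0.51 to -0.31). The sum over the 6 luminal chaperones was 2295 CPM in the tRF-3004b library and 1831 CPM in the control library. This is a log2 ratio of 0.33 (interval 0.28 to 0.37). By TPM the luminal chaperones summed to 1496 in the tRF-3004b library and 1452 in the control library, and the ERAD genes to 209 and 344.

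The 4 genes of the sensor group had log2 ratios below 0, with the interval below 0 for XBP1 and ATF6. Beside genes of like length, ATF6 and ERN1 turned above 0, ATF6B was at -0.14, and XBP1, not itself a sensor, was at -0.63. XBP1, the mRNA that IRE1 cuts (chromosome 22, 28794560 to 28800569), had 154 CPM in the tRF-3004b library and 226 CPM in the control library. The log2 ratio of -0.55 had an interval from -0.73 to -0.37, a 1.46-fold lower level. ATF6 had 114 and 147 CPM in the tRF-3004b and control libraries (log2 ratio -0.36, interval -0.58 to -0.16). Its relative ATF6B had 13 and 158 counts in the tRF-3004b and control libraries (interval -1.06 to 0.70). ERN1, the least abundant measured member per length, was at 2.79 TPM in the tRF-3004b library and 4.68 TPM in the control library, with 22 and 326 counts and an interval from -1.09 to 0.22.

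IRE1 removes 26 bases from XBP1 mRNA, which shifts the reading frame and gives the active transcription factor. The stretch is shown because its removal defines the spliced form. It is in the coding sequence, read from a GENCODE transcript on GRCh38, with the removed bases in capitals and 20 bases on each side in lower case.
XBP1 cleavage region: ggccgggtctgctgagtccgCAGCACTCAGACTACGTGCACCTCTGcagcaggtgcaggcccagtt

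The spliced form of XBP1 was estimated at 0 of 274 counts in the tRF-3004b library and at 141 of 4503 counts in the control library. The share was 0% in the tRF-3004b library, which allows up to 1.09% by the limit of 3 counts, and 3.12% (Wilson 95% interval 2.66 to 3.68%) in the control library. At the control share, 8.56 counts would have been assigned to the spliced form in the tRF-3004b library. Forms of this size were often at 0 in this library. Of 1071 transcript forms over all genes that held 1% to 10% of their gene's control counts, with 6 to 12 counts awaited in the tRF-3004b library, 57.3% were below 1 count there. The deposited lengths of the 2 XBP1 forms are 1820 and 1810 bases, which do not differ by 26, so reads elsewhere in the transcript also enter the split. Reads over the cut site alone were not analysed here.

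Other members also differed in their transcript forms. These shares are estimates from reads that the forms have in common, and the intervals do not hold that uncertainty. HERPUD1 form NM_014685 had 0 counts in the tRF-3004b library and 1290 in the control library, 92.4% of the gene's counts there. The other 2 HERPUD1 forms took 46 and 26 counts in the tRF-3004b library, and 84 and 21 in the control library. Among 3648 genes with at least 50 counts in the tRF-3004b library and 1 form at 50% or more of control counts, that form was below 1 count in the tRF-3004b library for 5.78%. PDIA4 form NM_004911 had 72 counts in the tRF-3004b library, 31.3% of the gene, and 0 in the control library. EDEM2 form NM_018217 had 0 of 19 counts in the tRF-3004b library and 170.0 of 248 in the control library. For CANX, which had far more counts, the leading form held 85.0% in the tRF-3004b library and 86.7% in the control library.

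**Figure D3:**
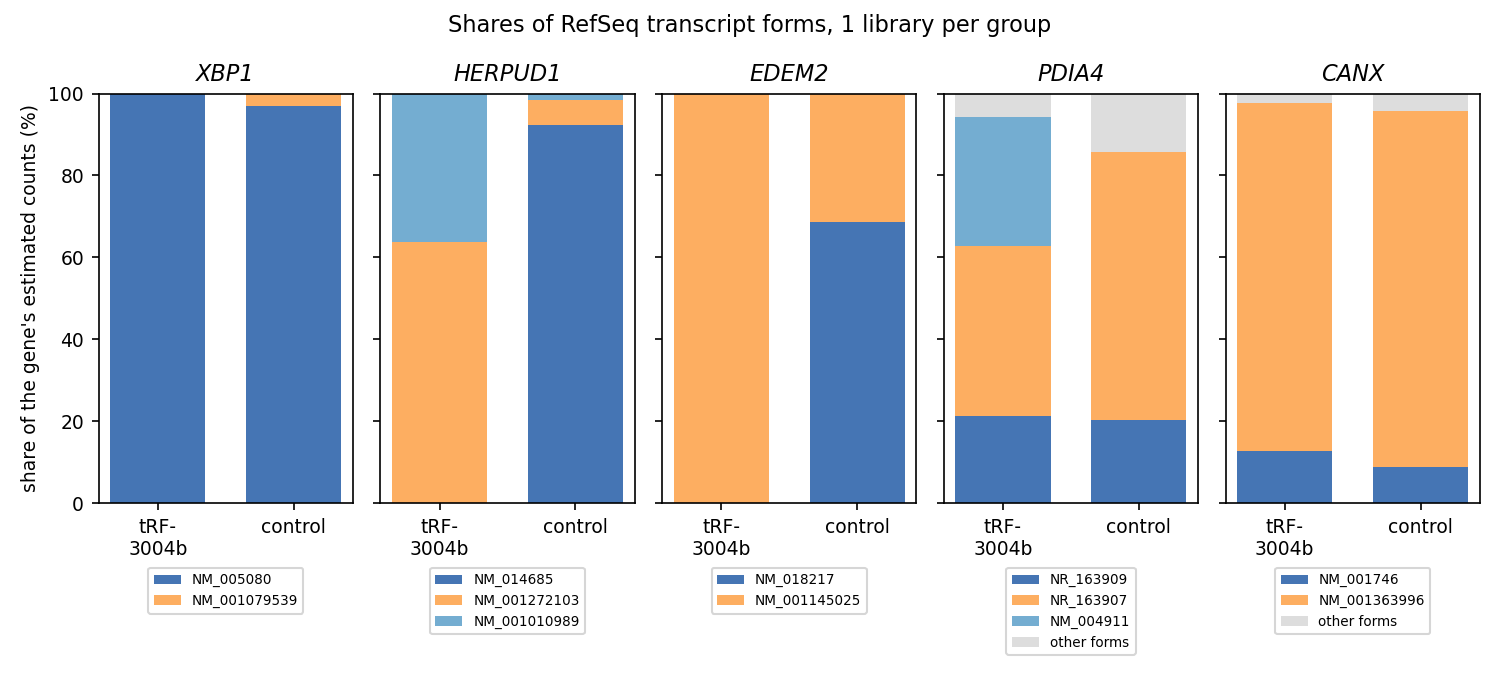
Share of each gene's estimated counts (y axis, percent) held by its RefSeq transcript forms in the tRF-3004b library (left bar) and the control library (right bar) for 5 members; forms under 10% in both libraries are grey, except for XBP1. The leading control form of HERPUD1 (92.4%) and of EDEM2 is at 0 in the tRF-3004b library, while the CANX shares are 85.0% and 86.7%.

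Promoters of the members were searched for the ER stress element, to which ATF6 and XBP1 bind with the factor NF-Y. The element is CCAAT and CCACG with 9 bases between them, and a second form is ATTGG and CCACG with 1 base between them, each read on both strands. The window ran from 250 bases before to 50 bases after each annotated start in RefSeq on GRCh38.p14, and 29 members had an entry. Of these, 11 (37.9%) held an exact match to either form, as did 0.161% of 27305 genes. Among the 10906 measured genes with an entry, 30 (0.275%) held one, and these include the 11 members. Since the element is known from promoters of such genes, the high share among members was awaited and is not a test. The first form was in CALR, CANX, CRELD2, ERO1B, HSP90B1, HSPA5, PDIA6 and XBP1, and the second in HERPUD1, HYOU1 and SDF2L1. A match is a description of the letters, and no binding was measured.

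The matches are shown for 7 members from across the range of log2 ratios, 5′ to 3′ on the gene's strand, with the fixed letters of the element in capitals. The SDF2L1 stretch is chr22:21642104-21642134 on the plus strand. The CALR stretch is chr19:12938374-12938412 on the plus strand. That of HYOU1 is chr11:119057264-119057400 on the minus strand and holds 2 elements. Those of HSPA5 (chr9:125241381-125241419), PDIA6 (chr2:10812843-10812881) and XBP1 (chr22:28800593-28800631) are on the minus strand. That of HERPUD1 is chr16:56932015-56932045 on the plus strand.
SDF2L1: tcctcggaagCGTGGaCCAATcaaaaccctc
CALR: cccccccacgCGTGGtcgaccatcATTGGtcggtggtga
HYOU1: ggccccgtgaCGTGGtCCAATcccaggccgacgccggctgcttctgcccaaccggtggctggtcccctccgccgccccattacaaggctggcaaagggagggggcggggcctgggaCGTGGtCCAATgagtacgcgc
HSPA5: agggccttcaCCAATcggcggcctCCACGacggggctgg
PDIA6: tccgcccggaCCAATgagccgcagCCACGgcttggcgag
XBP1: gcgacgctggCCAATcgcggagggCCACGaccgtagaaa
HERPUD1: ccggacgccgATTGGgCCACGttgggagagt

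Members with an element lay on both sides of 0. The median log2 ratio was 0.23 over the 11 members with an element, 7 of them above 0. It was -0.25 over the 18 measured members without one, 2 of them above 0. Transcripts of members with an element were shorter, with a median effective length of 2644 bases against 3460. Beside genes of like length the medians were 0.19 with an element and -0.11 without. The 11 held the highest of these genes after MANF, which are SDF2L1, CALR and HYOU1, but also HERPUD1, ERO1B and XBP1, which were among the lower ones. Over all measured genes the medians were 0.00 for the 30 with an element, the 11 members among them, and -0.10 for the rest. The core TGACGTG of another unfolded protein response element, read on both strands, was in HYOU1 and TXNDC5 only among the 29 members (6.90%, against 2.40% of all genes), and in HYOU1 it overlaps an ER stress element.

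**Figure D4:**
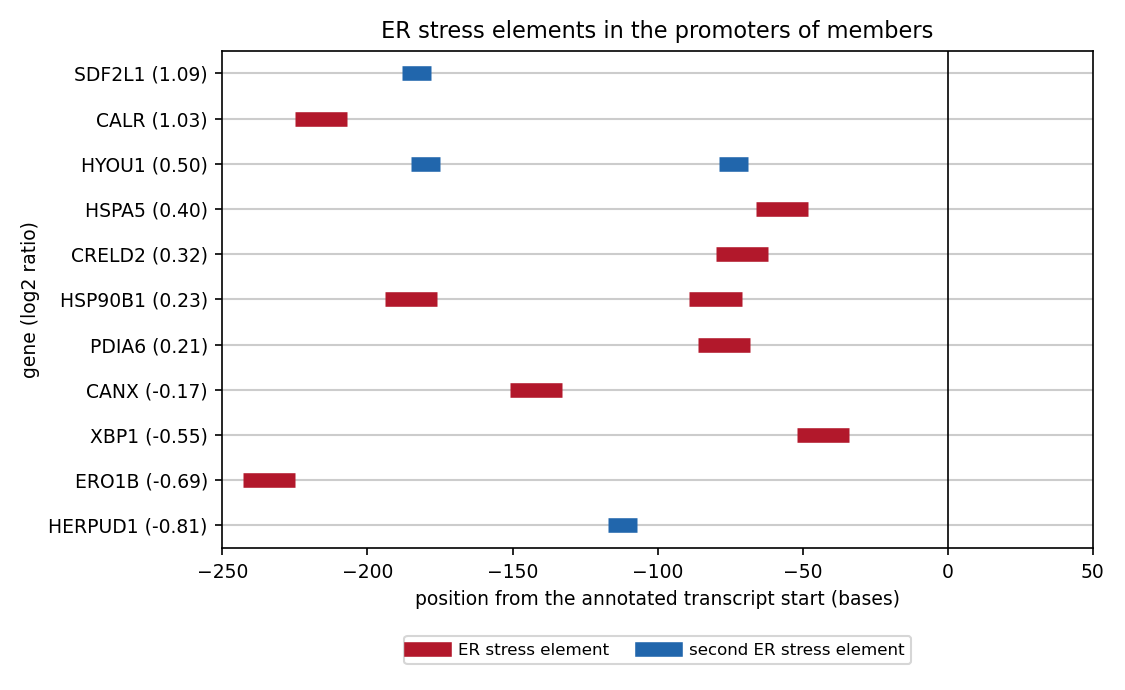
Position of exact ER stress elements (x axis, bases from the annotated transcript start, where 0 is the first transcribed base) in the 11 members that hold one, ordered by the log2 ratio given beside each name. Red marks the first form and blue the second; a site within reach of several CANX starts is drawn once, and genes such as HERPUD1 at -0.81 and SDF2L1 at 1.09 both hold the second form.

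The seed of tRF-3004b pairs with AGATTTG, and the annotated 3′ untranslated regions of the 31 measured members were searched for it. It was found in 8 members (25.8%), against 14.8% of 12229 genes searched. These were ATF6, DERL2 with 2 sites, EDEM3, ERN1, ERO1A, PDIA4, SEL1L and UGGT1. The regions of these 8 were longer, with a median of 4339 bases against 867 bases in the other members. Their median log2 ratio was -0.27, against -0.17 in members without a site, while over all genes the medians were -0.25 with a site and -0.084 without. Over all genes the regions with a site were also longer, with a median of 2926 bases against 851. Beside genes of like length, SEL1L was at -0.25, while PDIA4 at 0.26, ERO1A, EDEM3, ATF6, DERL2, UGGT1 and ERN1 were above 0. The part of the seed in these values was not tested. PDIA4, with a log2 ratio of 0.29, had a site, and the lower genes HERPUD1, UGGT2, ERO1B and XBP1 had none. The seed complement of the control RNA was in 0 of the 31 members and in 0.221% of all genes.

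Sites are shown for the 3 members in which the match is followed by an A, a feature of strong microRNA sites, and for PDIA4, the member with a site and a log2 ratio above 0. Capitals mark the match on the transcript strand. The capitals lie at chr14:81475163-81475169 for SEL1L, chr14:52643086-52643092 for ERO1A, chr17:5472279-5472285 for DERL2 and chr7:149003387-149003393 for PDIA4, all on the minus strand of GRCh38.
SEL1L: cttacatgtagAGATTTGagtgcagttgg
ERO1A: attgcccagttAGATTTGaatttcagata
DERL2: aactgaaagtgAGATTTGatacatggaat
PDIA4: attgttggcgtAGATTTGgcttctggtat

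Transcript length moved with the log2 ratio, in the members as in all genes. Spearman's rho between effective length and log2 ratio was -0.48 over the 31 members and -0.29 over the 13750 genes, given as descriptions of genes that share the same 2 libraries. Over all genes cut into 10 length bins, the median log2 ratio ran down to -0.44 at the longest and up to 0.62 at the shortest. Set against the median of its own bin, MANF stood at 0.70, SDF2L1 at 0.48 and CALR at 0.95. HSPA5 stood at 0.63, HYOU1 at 0.74 and PDIA3 at 0.50, higher than before, since these transcripts are longer. The luminal chaperones had a median of 0.55 on this scale, the ERAD factors of -0.16 and the sensors of -0.049. The medians of the lectin cycle at 0.10, of the disulfide enzymes at 0.056 and of all measured members at 0.051 changed sign. XBP1 stayed low at -0.63 and HERPUD1 at -0.72, while ATF6 at 0.078, CANX at 0.16 and UGGT1 at 0.051 changed sign. ERO1A at 0.22, EDEM3 at 0.18, DERL2 at 0.055 and ERN1 at 0.043, whose intervals included 0 before this step, were also above 0. The part of length in these values was not tested further.

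**Figure D5:**
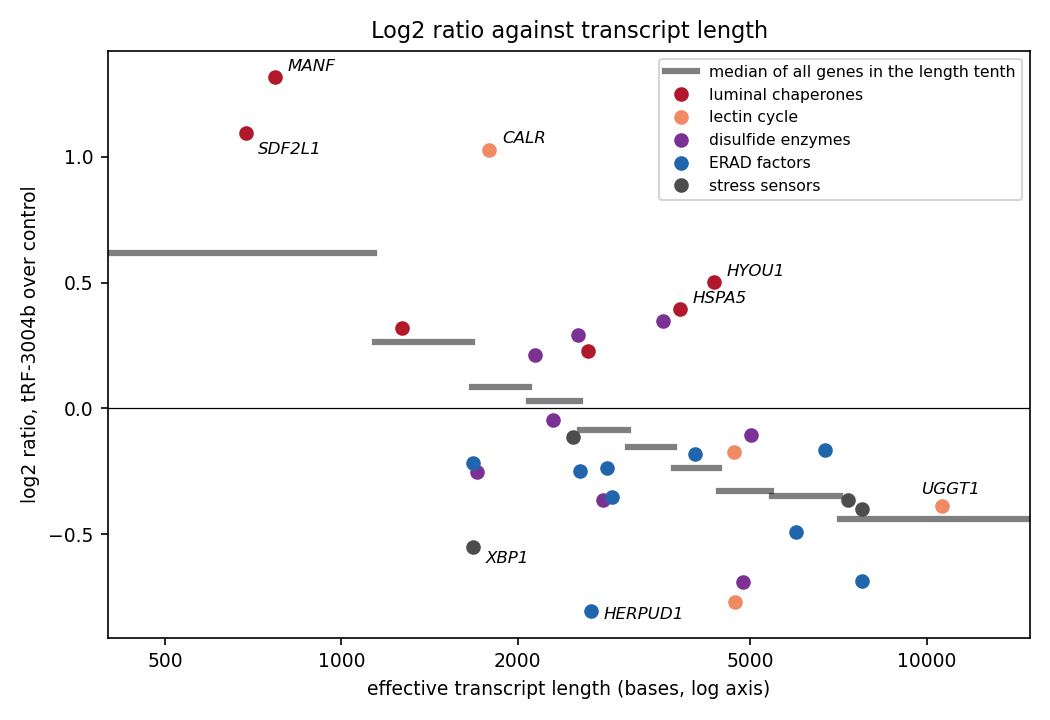
Log2 ratio (y axis, tRF-3004b over control) against effective transcript length (x axis, bases, log scale) of the 31 measured members, coloured by role. Grey bars are the medians of all genes in each of 10 length bins, from 0.62 in the shortest to -0.44 in the longest; CALR, HSPA5 and HYOU1 lie well above the bar at their length, XBP1 and HERPUD1 below it.

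The other genes of the ER folding pathway went both ways. Of 109 measured genes in 6 further lists, 9 (8.26%, beside 12.2% of all genes) passed 2-fold upward and 4 (3.67%, beside 14.2%) downward. The interval lay above 0 for 37 (33.9%, beside 23.3% of all genes) and below 0 for 33 (30.3%, beside 28.6%). Their median log2 ratio was 0.084. List medians that follow as above 0 were below 0 by TPM, at -0.092 for the other chaperones, -0.029 for the other disulfide and proline isomerases and -0.0088 for the translocon, where the median of all genes was -0.38. With length taken off, the N-glycan median turned to 0.059 and that of the genes beside the sensors to 0.081. Counts of genes above 0 in these lists stand beside 6123 of all 13750 genes. Other chaperones and BiP partners had a median of 0.26, with 9 of 14 above 0. CNPY3, a chaperone of Toll-like receptors, was at 0.81 and the calnexin relative CLGN at 0.77. DNAJC3, a J-domain cochaperone, was at -0.65 and SEC63, the J-domain protein of the translocon, at -0.50. Beside genes of like length, these were at 0.55, 0.85, -0.30 and -0.15 in this order. Other disulfide and proline isomerase enzymes had a median of 0.30, with 12 of 20 above 0. PPIB, the ER cyclophilin, had 565 and 2839 counts in the tRF-3004b and control libraries and a log2 ratio of 1.16 (interval 1.03 to 1.29). PRDX4, an ER peroxiredoxin, was at 0.84, and the membrane thioredoxin TMX4 and the proline isomerase FKBP10 were at -0.63 each. With length taken off, PPIB was at 0.54, PRDX4 at 0.22, TMX4 at -0.29 and FKBP10 at -0.66.

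Other ERAD factors had a median of -0.13, with 11 of 28 above 0. UFD1, which with VCP draws substrates from the membrane, had 166 and 631 counts in the tRF-3004b and control libraries and a log2 ratio of 1.56 (interval 1.31 to 1.81), and UBXN8, which tethers VCP to the ER, was at 1.13. The ligase MARCHF6 was at -0.83 and ERLIN1 at -0.69. Less the length bin median, UFD1 was at 1.29, UBXN8 at 0.86, MARCHF6 at -0.38 and ERLIN1 at -0.61. N-glycan transfer and trimming genes had a median of -0.11, and the subunits of the oligosaccharyltransferase were apart from each other. TUSC3 was at -0.54 and STT3B at -0.41 but DAD1 at 0.68 and OST4 at 0.97. With length taken off, these were at -0.39, -0.18, 0.059 and 0.35 in this order. Translocon and signal peptidase genes had a median of 0.33. The signal peptidase subunit SEC11C was at 1.52 and the channel subunit SEC61G at 1.04, against SEC61A2 at -1.34 and SSR3 at -0.26. With length taken off, these were at 0.90, 0.42, -1.37 and -0.029 in this order. Genes that process the sensors or act beside them had a median of -0.27. There MBTPS2, a protease that cleaves ATF6, was at -0.77 and CREB3L2 at -1.03, while RTCB, the ligase that rejoins XBP1 mRNA, was at 0.48 and CREB3 at 0.37. CREB3 had 26 and 225 counts in the tRF-3004b and control libraries, and its interval from -0.27 to 0.96 included 0. Less the length bin median, MBTPS2 was at -0.53, CREB3L2 at -0.68, RTCB at 0.39 and CREB3 at 0.11.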

How the data were processed

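Poly-A RNA of 1 tRF-3004b and 1 control library was analysed. The tools named are kallisto 0.46.1 with GRCh38, per the submitters' processing notes. For each of 70866 RefSeq transcripts the authors deposited an estimated count, a TPM value, a length and an effective length, per the file headers. Estimated counts are not whole because reads are divided among transcripts with common sequence. Deposited TPM values are divided by effective length and keep no depth. Not given in the sources used here are annotation release, trimming and strand setting.

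Transcripts were named from RefSeq (70239) and GENCODE 29 (299). The 328 unnamed ones, with 0.0713% of the tRF-3004b and 0.0723% of the control counts, were left out. Gene sums were rounded and scaled with TMM factors (0.983 for tRF-3004b, 1.02 for control; edgeR 4.0.16, R 4.3.3), with 0.5 added for log2 ratios. No test was run. Intervals are exact conditional Clopper-Pearson intervals. Since reads carry no molecular identifiers and may be copies of 1 molecule, intervals and limits hold counting error alone. The script was tested on simulated data. The rule for named genes takes all members, and in each further list the 2 highest and 2 lowest at a mean CPM of at least 10. Members, lists and settings were chosen with earlier results of these data known. Proteins were not analysed here. Alternatives were other filters, scaling by total counts or by size factors of DESeq2 1.42.0, TPM with 1 added, 5 added counts and removal of length bin medians. After seeing the data, sums over genes sharing 31-base words were added. Python 3.11.15 was used.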

Additional observations from a re-analysis of the deposited data

How the results depend on the processing

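No paired analysis was possible because each group has 1 library. With total counts, DESeq2 size factors or sums with sequence-sharing genes, each of the 31 members stayed within its interval, each count within 1.5 times and each list median within its order-statistic interval. The same held with 5 added counts, and with a mean CPM of at least 10 for counts and medians. Sums with sequence-sharing genes changed the values of HSP90B1, PDIA3 and TXNDC5 only, so they were no check on the other members. With gene TPM and 1 added, the median of all genes was -0.38 against -0.11. On that scale 0 members passed 2-fold upward and 3 downward, beside 680 and 2434 of all 13750 genes. The medians were then -0.51 over the members, 0.11 over the luminal chaperones and -0.63 over the sensors. HSP90B1 changed sign to -0.11, PDIA4 to -0.069 and PDIA6 to -0.13. A further 17 members left their interval, among them PDIA3 at 0.0082, HSPA5 at 0.053 and HYOU1 at 0.16. After subtraction of length bin medians, 0 members were at least 2-fold higher, the ERAD median was -0.16 and the sensor median -0.049. CANX changed sign to 0.16, UGGT1 to 0.051 and ATF6 to 0.078, and a further 11 members left their interval. Without a filter, 1 member, DERL3 with 0 and 4 counts in the tRF-3004b and control libraries, counted as at least 2-fold lower, a value set by the added count. The causes were not tested. Depth limits SDF2L1, ATF6B, SYVN1, EDEM2 and ERN1 most, each with under 25 counts in the tRF-3004b library.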
